A study of Mus musculus with 28 samples.

Results

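Matrix metalloproteinases (MMPs) and their tissue inhibitors (TIMPs) were examined in murine bone marrow-derived macrophages (BMDMs). The group was fixed by name as 8 genes of the 54532 in the count table. It holds 6 proteases (Mmp8, Mmp9, Mmp12, Mmp13, Mmp14 and Mmp19) and 2 inhibitors (Timp1 and Timp2). All 8 were found by symbol, each with 1 Ensembl gene, and no expression value was used to choose them.

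Bulk RNA sequencing was done in 28 cultures. BMDMs kept in M-CSF were washed and given fresh medium with CaCl2, and then received PBS (control), plasma-derived von Willebrand factor (pd-VWF) at 10 µg/ml, or LPS. The dose of LPS was 100 ng/ml. Cultures were collected after 3.5 h (5 control, 5 VWF and 4 LPS cultures) or after 16 h (again 5, 5 and 4). VWF is the large plasma glycoprotein that tethers platelets to damaged vessel walls, and LPS is a bacterial cell wall component sensed by Toll-like receptor 4. The BMDMs came from bone marrow of C57/B6JB mice, as the methods spell the strain, aged 8 to 12 weeks. The sources used here do not give their sex, or what a shared replicate number stands for.

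MMPs are zinc-dependent endopeptidases that are made as inactive zymogens. Together they cleave collagens, elastin, gelatin and other matrix proteins, and they also shed or trim cytokines and receptors. TIMPs bind the active site of MMPs and block it. Macrophages are a major source of several MMPs, among them MMP-12, which was first known as macrophage metalloelastase. MMP-8 and MMP-13 cleave fibrillar collagen, MMP-9 is a gelatinase, MMP-14 is held in the plasma membrane and activates proMMP-2 in a complex with TIMP-2, and MMP-19 cleaves basement membrane proteins.

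On GRCm38, in the GENCODE M21 annotation, 3 of the 6 protease genes lie in a row of 10 Mmp genes on chromosome 9, between 7272514 and 7699585. Mmp13 spans chr9:7272514-7283331, Mmp12 spans chr9:7344381-7369499 and Mmp8 spans chr9:7558456-7568485, each on the plus strand. The other 3 are dispersed, with Mmp9 at chr2:164940780-164955850, Mmp14 at chr14:54431612-54445364 and Mmp19 at chr10:128790910-128800824. Timp1 lies at chrX:20870166-20874735 within the span of Syn1, and Timp2 at chr11:118301069-118355740 on the minus strand. The exons of Mmp19 overlap 2 genes on the opposite strand, Tmem198b and Gm47093, over 28.3% of their length. Since the strand setting of the counting is not given, counts of Mmp19 and of these 2 genes cannot be told apart in that stretch. For Mmp12 the overlap, with Mmp1b, covers 2.17%.

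Promoter sequences are shown for Mmp13 and Mmp14, which both rose with either agonist at 3.5 h, and for Mmp8, a second collagenase of the chromosome 9 row that did not. They are the 150 bases before the RefSeq start site (GRCm38.p6), at chr9:7272364-7272513 for Mmp13, chr14:54431448-54431597 for Mmp14 and chr9:7558279-7558428 for Mmp8, each on the plus strand. Capitals mark motif matches.
Mmp13: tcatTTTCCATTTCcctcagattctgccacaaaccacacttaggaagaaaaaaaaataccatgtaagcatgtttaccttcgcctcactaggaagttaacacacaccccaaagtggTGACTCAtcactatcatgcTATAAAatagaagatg
Mmp14: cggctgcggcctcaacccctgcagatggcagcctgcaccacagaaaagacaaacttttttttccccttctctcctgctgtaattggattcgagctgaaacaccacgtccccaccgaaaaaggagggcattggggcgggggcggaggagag
Mmp8: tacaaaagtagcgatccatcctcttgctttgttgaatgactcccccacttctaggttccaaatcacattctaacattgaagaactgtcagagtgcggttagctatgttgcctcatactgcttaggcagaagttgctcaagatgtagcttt

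A promoter was found for 6 of the 8 genes, with 2 start sites for Mmp12. The 250 bases before each start were searched on both strands for AP-1 (TGANTCA), kappaB, GAS (TTCNNNGAA), ISRE and the TATA box (TATAAA). Mmp13 held 3 matches, which do not overlap: an ISRE match on the minus strand from -146 to -137, an AP-1 match from -35 to -29 and a TATA box from -16 to -11, counted from the start site. Mmp12 held an AP-1 match from -44 to -38 at its second start site and a kappaB match from -129 to -120 at its first. The promoters of Mmp8, Mmp14, Timp1 and Timp2 held no match in this window. Among all 32851 promoters searched, 6.75% held the AP-1 motif, 7.25% kappaB, 7.02% GAS, 2.98% ISRE and 12.4% the TATA box. A match is a description of the sequence only.

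Total counts per culture lay between 41131209 and 77699206. All 9 macrophage markers reached 10 TPM (counts scaled by exon length and by the library's total) in every group. Of 10 neutrophil markers, 2 or 3 reached 10 TPM in each group, while Ly6g was at or near 0, with a mean of at most 0.0118 CPM (counts scaled by library total). Control replicate 5 at 16 h stood apart, with a summed macrophage marker level of 6839 CPM, against 14560 to 17820 CPM in the other controls of that time. LPS replicate 4 at 16 h also stood apart, by chi-square per degree of freedom between the counts of 2 cultures. It gave 265 to 469 against the other LPS cultures of that time, which gave 46.4 to 94.0 among themselves. Its summed macrophage marker level, 10250 CPM, was the lowest of its group. Normalization factors (TMM) ranged from 1.04 to 1.24 in control and from 0.745 to 0.849 in LPS cultures. Without them, by library size alone, the median gene shifted by -0.55 (log2) in LPS against control at 3.5 h and by -0.59 at 16 h. At 3.5 h the split of called genes in that comparison moved from 1047 higher and 963 lower to 704 and 2213, and at 16 h from 1221 and 989 to 782 and 2319. For VWF against control at 3.5 h the shift was -0.22, with 746 higher and 458 lower calls becoming 608 and 652.

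Levels below are in CPM with TMM factors, and changes are log2 fold changes ± SE from edgeR. A gene was called when its Benjamini-Hochberg adjusted p over all genes tested was under 0.05 and its absolute log2 fold change was over 1. In bulk RNA, fewer cells of a type and less RNA per cell cannot be told apart. The VWF and LPS comparisons of a given time share the same control cultures.

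At 3.5 h, VWF called 4 of 8 members, with Mmp9, Mmp13 and Mmp14 higher and Mmp19 lower, in a comparison where 14.7% of 8200 genes were called (9.1% higher and 5.59% lower). LPS called 4 of the 7 members tested at that time (Mmp13, Mmp14 and Timp1 higher, Mmp19 lower), where 24.5% of genes were called (12.8% higher and 11.8% lower). VWF and LPS differed directly in 2 of 8 members at 3.5 h, Mmp13 and Timp1, both lower with VWF, against 11.4% of all genes (4.71% higher and 6.71% lower). At 16 h, VWF called 3 of 7 members (Mmp9 and Mmp14 higher, Mmp12 lower), where 8.71% of genes were called (4.55% higher and 4.15% lower). LPS called 4 of 7 (Mmp9, Mmp13, Mmp14 and Timp1, all higher), where 27.6% were called (15.3% higher and 12.4% lower). The direct comparison at 16 h called 4 of 7, with Mmp9 higher and Mmp13, Mmp14 and Timp1 lower in VWF than in LPS cultures, where 25.5% were called (11.1% higher and 14.5% lower). By adjusted p alone, with no fold threshold, the members that passed at 3.5 h were 5 of 8 with VWF (43.6% of all genes), 6 of 7 with LPS (65.7%) and 4 of 8 between VWF and LPS (50.2%). At 16 h they were 5 of 7 (27.7%), 6 of 7 (53.7%) and 6 of 7 (60.5%). The median change of the members tested against control was 0.49 for VWF and 0.60 for LPS at 3.5 h, and -0.29 and 1.45 at 16 h, while the median over all genes lay between -0.03 and -0.01 in these 4 comparisons. The members differed in direction and in time course, which the plot of levels by culture shows gene by gene.

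**Figure D1:**
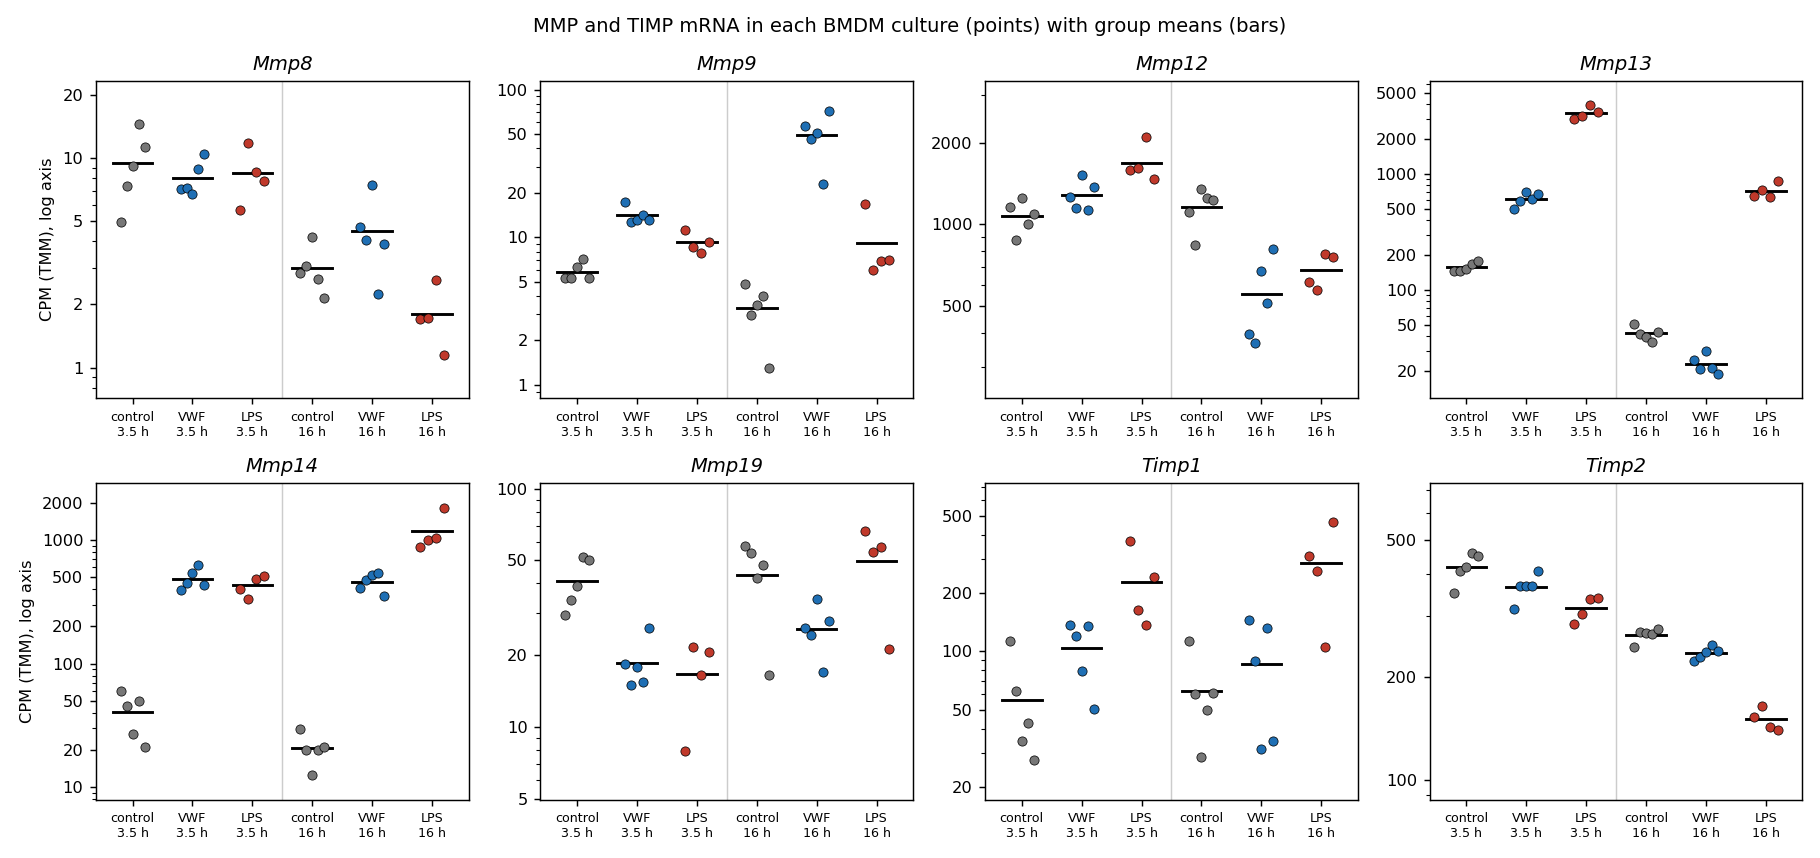
Level of each of the 8 genes (vertical axis, CPM with TMM factors, log axis with its own range per gene) in every culture, by treatment and time (horizontal axis). Points are cultures, n = 5 for control and VWF and n = 4 for LPS at each time, and bars are group means. Mmp9 peaks with VWF at 16 h (23.1 to 71.4 CPM), Mmp13 with LPS at 3.5 h (2955 to 3961 CPM) and Mmp14 with LPS at 16 h (878 to 1817 CPM).

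Mmp13, a collagenase, showed the widest range of group means among the 8 genes. In control cultures at 3.5 h its level was 147, 146, 152, 167 and 179 CPM. With VWF it was 499, 581, 694, 612 and 669 CPM, and with LPS 2955, 3196, 3961 and 3430 CPM. The 3 groups did not overlap. Mmp13 was higher than control by 1.86 ± 0.10 with VWF (3.64-fold, edgeR adjusted p = 3.02e-08) and by 4.38 ± 0.11 with LPS (20.8-fold, edgeR adjusted p = 1.61e-10). VWF cultures stood below LPS cultures by -2.48 ± 0.11 (5.60-fold lower, edgeR adjusted p = 1.11e-07).

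By 16 h the order of Mmp13 had changed. Control cultures held 51.1, 41.5, 39.1, 35.6 and 43.7 CPM, VWF cultures 25.1, 20.7, 29.8, 21.1 and 18.7 CPM, and LPS cultures 652, 727, 634 and 867 CPM. Every VWF culture lay below every control, and every LPS culture far above. The difference between VWF and control was -0.98 ± 0.14 (edgeR adjusted p = 0.000466), just short of the fold threshold. It passed that threshold by library size alone (-1.04) and without control replicate 3 (-1.01) or 4 (-1.04) or VWF replicate 1 (-1.02) or 3 (-1.08). LPS remained 4.06 ± 0.16 above control (16.6-fold, edgeR adjusted p = 6.46e-08). Between the agonists, VWF was lower than LPS by -4.99 ± 0.17, a 31.8-fold difference (edgeR adjusted p = 3.15e-08).

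Mmp8, the neutrophil collagenase, was a low gene and did not follow Mmp13. At 3.5 h it lay at 9.45 ± 3.68 CPM in control (SD, n = 5), 8.08 ± 1.55 with VWF (n = 5) and 8.47 ± 2.58 with LPS (n = 4), and the groups overlapped. Its change at that time was -0.30 with VWF (95% interval -0.85 to 0.25) and -0.19 with LPS (-0.83 to 0.45), neither called. At 16 h no culture of any of the 3 conditions reached 10 TPM and Mmp8 was not tested. With no filter, Mmp8 was higher with VWF than with LPS by 1.27 ± 0.32 (edgeR adjusted p = 0.0075), past the fold threshold, while VWF against control gave 0.54 ± 0.27 (edgeR adjusted p = 0.258) and LPS against control -0.67 ± 0.30 (edgeR adjusted p = 0.133). Its levels there were 2.97 ± 0.76 CPM in control, 4.46 ± 1.89 with VWF and 1.80 ± 0.61 with LPS.

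Mmp9, the macrophage gelatinase, was higher with VWF than in control or LPS cultures at both times. Its level at 3.5 h was 5.27, 5.28, 6.24, 7.17 and 5.31 CPM in control, 17.3, 12.6, 13.1, 14.2 and 13.2 CPM with VWF, and 11.2, 8.60, 7.77 and 9.31 CPM with LPS. The 3 groups did not overlap, with VWF on top. VWF raised Mmp9 by 1.19 ± 0.13 over control (2.28-fold, edgeR adjusted p = 1.61e-05), or by 0.98 with library size alone, which is short of the fold threshold. Mmp9 passed the filter in that comparison only through VWF replicates 1 and 5 (15.2 and 10.9 TPM). Between VWF and LPS the difference was 0.60 ± 0.16 (edgeR adjusted p = 0.0106), under the fold threshold. LPS cultures and their controls stayed under 10 TPM. With no filter, the LPS change was 0.65 ± 0.16 (edgeR adjusted p = 0.0023), under the fold threshold.

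At 16 h the gap widened. Mmp9 was at 4.84, 3.00, 3.48, 4.02 and 1.31 CPM in control cultures and at 56.3, 46.3, 51.1, 23.1 and 71.4 CPM in VWF cultures. LPS cultures held 16.8, 6.05, 6.94 and 7.04 CPM, so that the lowest VWF culture still exceeded the highest LPS culture. Mmp9 was 13.7-fold higher with VWF than in control (3.78 ± 0.38, edgeR adjusted p = 3.8e-05) and 5.22-fold higher than with LPS (2.38 ± 0.41, edgeR adjusted p = 0.000682). Between VWF and control, Mmp9 passed the filter only through VWF cultures (15.5 to 57.1 TPM), as controls reached at most 4.42 TPM. LPS against control gave 1.45 ± 0.42 (2.74-fold, edgeR adjusted p = 0.0165), a call that was lost by library size alone (0.86, edgeR adjusted p = 0.125). In that comparison Mmp9 passed the filter only through LPS replicate 1 (10.9 TPM) and was not tested without it. With no filter and without that culture the change was 1.05 ± 0.34 (edgeR adjusted p = 0.0493), a setting chosen after the data were seen. Without control replicate 5, which had the lowest Mmp9 level, the change was 3.58 with VWF and 1.25 with LPS, both still called.

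With VWF at 16 h, 4 of 9 macrophage markers were also called higher, where 4.55% of all genes were called higher. These were Fcgr1 (2.89 ± 0.23), Adgre1 (F4/80, 1.80 ± 0.21), C1qa (1.49 ± 0.32) and Itgam (CD11b, 1.18 ± 0.09). The other 5 were not called, with Lyz2 (lysozyme), the largest part of the sum, at 0.71 ± 0.31, Cd68 at 0.03 ± 0.33 and Mertk at -0.53 ± 0.25. The summed level was 24170 to 30750 CPM in VWF cultures at 16 h, 6839 to 17820 in control and 10250 to 14990 with LPS. At 3.5 h, where Mmp9 was also called with VWF, the sums overlapped (12890 to 17620 CPM with VWF and 11620 to 17330 in control) and the only marker called was Mertk, which was lower (-2.67 ± 0.29). With LPS at 16 h, Fcgr1 and Adgre1 were called higher and Lyz2 lower (-1.38 ± 0.39). Neutrophils also make MMP-9. Summed neutrophil markers at 3.5 h were 5.34 to 29.61 CPM with VWF, 4.56 to 15.15 in control and 11.84 to 32.37 with LPS. At 16 h they were 16.2 to 37.8 CPM with VWF, 8.48 to 21.9 in control and 12.94 to 35.65 with LPS. Of the 10, 3 were tested between VWF and control at 16 h. Camp (cathelicidin) was called higher with VWF than in control (3.65 ± 0.86, edgeR adjusted p = 0.00929) and than with LPS (1.33 ± 0.28, edgeR adjusted p = 0.00227). It passed the filter only through the VWF group, and its level was 1.73 to 3.30 CPM there and 0.0127 to 0.635 in control. S100a8 (0.10 ± 0.26) and S100a9 (1.28 ± 0.86) were not called with VWF against control, and Ly6g was at 0 in every culture of both groups. With LPS at 3.5 h, S100a9 was called higher than control (1.73 ± 0.63, edgeR adjusted p = 0.0307) and S100a8 was not called (0.97 ± 0.25). The part of cell makeup in the rise of Mmp9 was not tested.

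Mmp14, the membrane-type protease, rose with both agonists at both times. In control cultures at 3.5 h it was at 59.4, 45.3, 26.7, 49.9 and 20.9 CPM. VWF cultures held 394, 448, 539, 629 and 430 CPM, and LPS cultures 400, 330, 482 and 511 CPM. Both treated groups were apart from control and overlapped each other. The rise was 3.49 ± 0.30 with VWF (11.2-fold, edgeR adjusted p = 2.01e-06) and 3.35 ± 0.30 with LPS (10.2-fold, edgeR adjusted p = 2.47e-06). The difference between VWF and LPS was 0.17 with a 95% interval from -0.16 to 0.50 (edgeR adjusted p = 0.366).

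At 16 h the levels of Mmp14 in VWF cultures were 410, 474, 520, 545 and 352 CPM, close to those at 3.5 h. Controls were at 29.6, 20.1, 12.6, 20.1 and 21.2 CPM. LPS cultures had gone to 878, 995, 1046 and 1817 CPM. Replicate 4 was the highest of these, and all 4 lay above every VWF culture. Mmp14 was 20.5-fold higher with VWF than in control (4.36 ± 0.24, edgeR adjusted p = 1.16e-06) and 55.8-fold higher with LPS (5.80 ± 0.34, edgeR adjusted p = 6.2e-07). VWF was below LPS by -1.39 ± 0.22 (2.62-fold lower, edgeR adjusted p = 0.000418), and by -0.92 with library size alone, short of the fold threshold.

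The summed level of markers of osteoclasts, cells that also express Mmp14, was higher in the same groups, but the single markers were mixed. The summed level of 6 markers was 36.15 to 42.03 CPM in control, 70.9 to 105 with VWF and 178 to 356 with LPS at 3.5 h, and 33.8 to 63.6, 78.5 to 128 and 193 to 229 CPM at 16 h. Acp5 (tartrate-resistant acid phosphatase) had the highest mean of the 6 in every group and was called higher in all 4 comparisons with control, while Dcstamp was called lower with both agonists at 16 h. Ctsk was lower and not called with VWF, at -0.56 ± 0.17 at 3.5 h and -0.23 ± 0.22 at 16 h. With LPS it was -0.11 ± 0.17 at 3.5 h and was called higher at 16 h (1.10 ± 0.25). Ocstamp was tested against control only with LPS at 16 h, where it was called higher (2.15 ± 0.20). Calcr (the calcitonin receptor) and Oscar stayed at or near 0, with means of at most 0.103 and 0.0583 CPM. The sum of 5 dendritic cell markers was 1.34 to 1.73 CPM in control, 13.98 to 20.99 with VWF and 21.8 to 27.0 with LPS at 3.5 h, and 0.65 to 2.10, 0.94 to 2.88 and 13.2 to 29.4 CPM at 16 h. Xcr1 gave most of that sum in the treated groups, and Flt3 had a mean of at most 0.0831 CPM. The part of these cells in the levels of Mmp14 was not tested.

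Mmp12, the macrophage elastase, was the most abundant of the 6 protease transcripts in control cultures, and the only one of them called lower with VWF at 16 h. At 3.5 h it was at 1160, 873, 1253, 1001 and 1094 CPM in control, at 1260, 1152, 1521, 1128 and 1378 CPM with VWF, and at 1579, 1607, 2105 and 1465 CPM with LPS. Its change was 0.17 ± 0.12 with VWF (edgeR adjusted p = 0.262), a sign that turned by library size alone (-0.04). With LPS the change was 0.60 ± 0.13 (edgeR adjusted p = 0.00197), under the fold threshold, and 0.07 by library size alone. Neither was called.

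At 16 h control cultures held 1115, 843, 1354, 1252 and 1226 CPM of Mmp12. VWF cultures held 394, 368, 677, 513 and 813 CPM and LPS cultures 614, 572, 776 and 761 CPM. Every treated culture lay below every control. Mmp12 fell by 1.18 ± 0.23 on the log2 scale with VWF (2.27-fold lower, edgeR adjusted p = 0.0027). For LPS the difference was -0.80 ± 0.17 (edgeR adjusted p = 0.00263), under the fold threshold, and -1.36 by library size alone, where it was called. VWF and LPS differed by -0.33 (95% interval -0.86 to 0.20, edgeR adjusted p = 0.252), with the sign turned by library size alone (0.13).

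Mmp19 fell early with both agonists. Its level at 3.5 h was 29.6 to 51.6 CPM in control, 15.01 to 25.9 with VWF and 7.93 to 21.7 with LPS, and both treated groups lay below control without overlap. The change was -1.22 ± 0.19 with VWF (2.32-fold lower, edgeR adjusted p = 0.000265) and -1.33 ± 0.27 with LPS (2.52-fold lower, edgeR adjusted p = 0.00117). The agonists differed by 0.14 (95% interval -0.45 to 0.74).

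Later, the groups of Mmp19 overlapped, with 16.6 to 57.3 CPM in control, 17.0 to 34.4 with VWF and 21.3 to 66.1 with LPS. The difference of VWF from control was -0.86 ± 0.30 (edgeR adjusted p = 0.0545). Control replicate 5, a library that stood apart, held the lowest control value. Without it VWF was lower by -1.07 and called by edgeR. LPS differed from control by 0.16 (95% interval -0.72 to 1.03), a sign that turned by library size alone (-0.42). VWF against LPS gave -0.97 ± 0.30 (edgeR adjusted p = 0.0196), and passed the fold threshold without LPS replicate 4 (-1.22) or VWF replicate 3 (-1.07). All values of Mmp19 carry the overlap with opposite-strand genes named above.

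**Figure D2:**
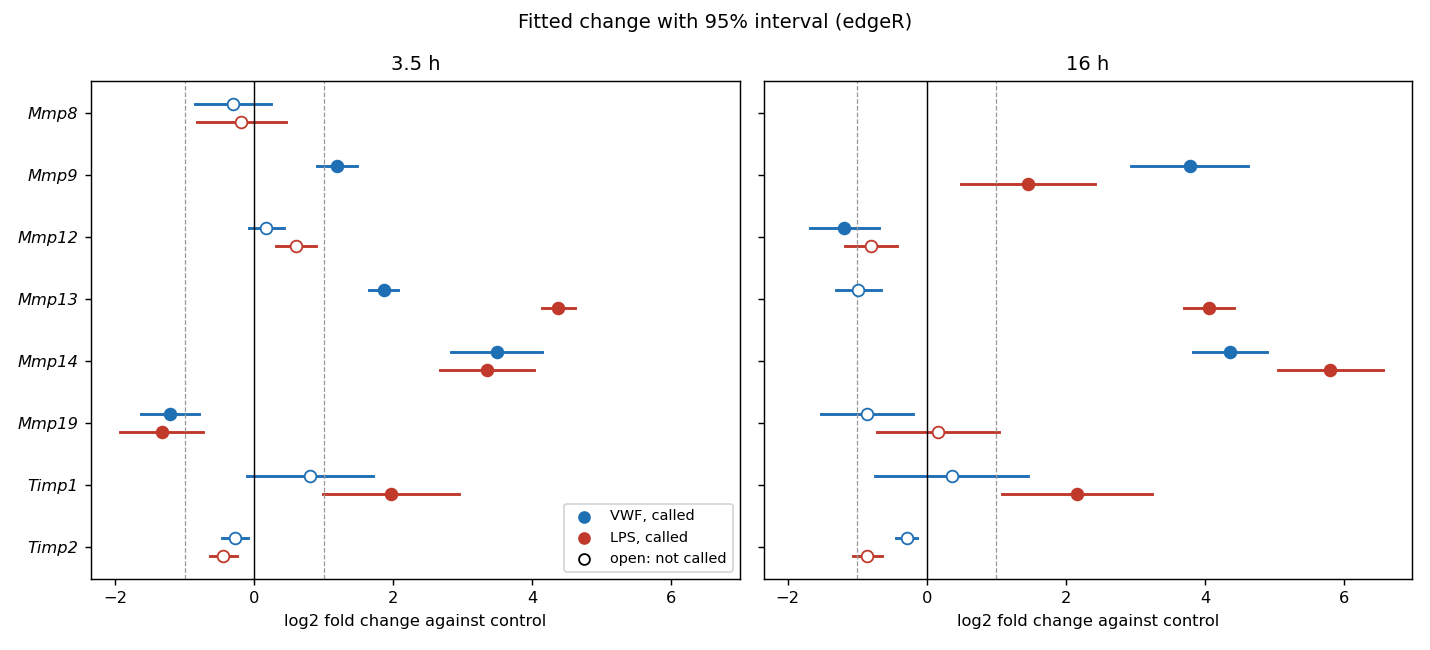
Log2 fold change against control (horizontal axis) of each gene (vertical axis) at 3.5 h (left) and 16 h (right), for VWF in blue and LPS in red, with 95% intervals from edgeR. Filled points were called, dashed lines mark a log2 fold change of 1 in either direction, and Mmp9 with LPS at 3.5 h and Mmp8 at 16 h are missing because they were under the filter. Mmp14 sits to the right in all 4 comparisons (3.35 to 5.80), while Mmp13 with VWF moves from 1.86 at 3.5 h to -0.98 at 16 h.

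Timp1, the inhibitor that also binds proMMP-9, rose with LPS. At 3.5 h it was at 113, 62.9, 34.3, 42.7 and 27.5 CPM in control and at 372, 164, 137 and 242 CPM with LPS. VWF cultures held 137, 121, 79.6, 136 and 50.7 CPM. LPS cultures lay above all controls, while VWF cultures overlapped control. The rise with LPS was 1.97 ± 0.44 (3.91-fold, edgeR adjusted p = 0.00246). With VWF the change was 0.80 ± 0.41 (95% interval -0.11 to 1.70, edgeR adjusted p = 0.147), and 1.25 without control replicate 1, where it was called (edgeR adjusted p = 0.0127). With a replicate block that change was 0.91, which passed by adjusted p but not by the fold threshold. VWF differed from LPS by -1.15 ± 0.35 (edgeR adjusted p = 0.0209). Without LPS replicate 1 that difference was -0.79 and no longer called (edgeR adjusted p = 0.0792), and it was also lost by library size alone (-0.85), with no filter (-1.19), with all 6 groups in one fit (-1.16) and with a replicate block (-0.89).

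At 16 h Timp1 was at 113, 60.2, 28.7, 49.9 and 61.2 CPM in control. VWF cultures held 146, 89.4, 31.2, 131 and 34.4 CPM, and LPS cultures 311, 261, 106 and 463 CPM. The range in each group spanned several-fold, and LPS replicate 3 fell below control replicate 1. LPS against control gave 2.16 ± 0.48 (4.48-fold, edgeR adjusted p = 0.00371). VWF against control gave 0.36 with an interval from -0.74 to 1.46 (edgeR adjusted p = 0.674). VWF was lower than LPS by -1.75 ± 0.56 (3.37-fold lower, edgeR adjusted p = 0.0213), and by -1.28 and not called with library size alone (edgeR adjusted p = 0.0512).

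Within a group, Timp1 varied with the replicate number. Replicate 1 was the highest and replicates 3 or 5 the lowest in control and VWF cultures at both times. Fibroblast and stromal markers, a list of 7 genes led by Col1a1 and Col1a2, also differed between replicate numbers. Their summed level at 3.5 h was 309 CPM in control replicate 1 and 56.8 in replicate 3, and 430 and 65.6 CPM in the same replicates with VWF. By group, the sum ranged from 56.8 to 309 CPM in control, 65.6 to 430 with VWF and 59.2 to 212 with LPS at 3.5 h, and from 17.3 to 180, 61.9 to 306 and 70.0 to 343 CPM at 16 h. Not every culture went this way. LPS replicate 4 at 16 h had the highest Timp1 level (463 CPM) and the lowest stromal sum of its group (70.0 CPM), control replicate 5 at 16 h the second highest Timp1 level (61.2 CPM) and the lowest sum (17.3 CPM), and control replicate 4 at 3.5 h a Timp1 level of 42.7 CPM with the second highest sum (242 CPM). The part of stromal cells in Timp1 was not tested.

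Timp2, the inhibitor that forms a complex with MMP-14, was not called against control at either time. At 3.5 h it lay between 352 and 460 CPM in control, 315 and 408 with VWF and 286 and 339 with LPS. Its change was -0.28 ± 0.09 with VWF (edgeR adjusted p = 0.0211) and -0.44 ± 0.09 with LPS (edgeR adjusted p = 0.000855), both under the fold threshold. At 16 h levels were 243 to 275 CPM in control, 222 to 248 with VWF and 140 to 165 with LPS. The LPS group was apart from the others. LPS differed from control by -0.86 ± 0.09 (edgeR adjusted p = 3.32e-05), which reached -1.41 and was called by library size alone. VWF against control gave -0.29 ± 0.07 (edgeR adjusted p = 0.00837). VWF was above LPS by 0.61 ± 0.08 (edgeR adjusted p = 0.000115), and by 1.07 with library size alone, where it was called.

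**Figure D3:**
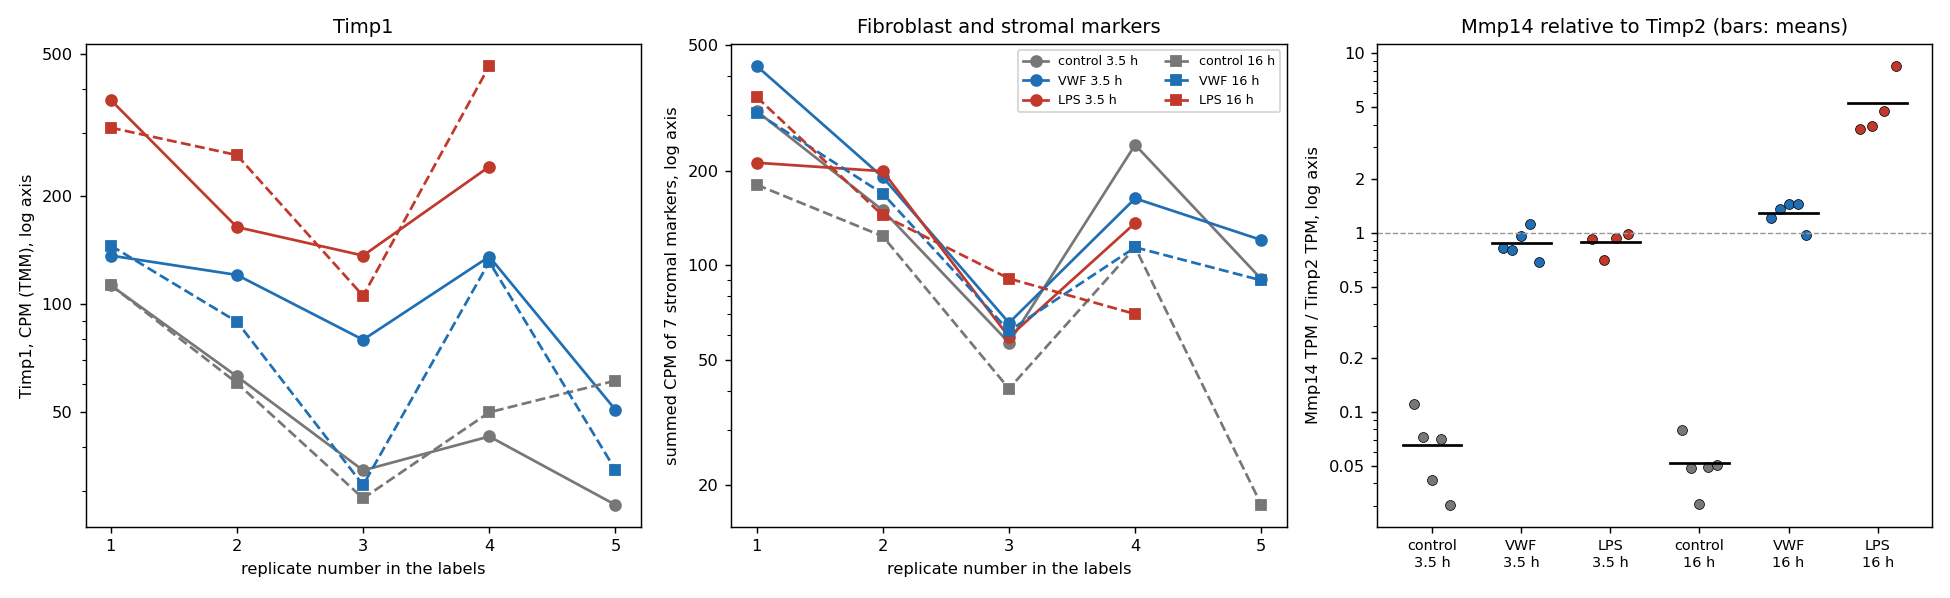
Left, Timp1 level (CPM with TMM factors, log axis) and, middle, the summed level of 7 fibroblast and stromal markers (CPM, log axis), each against the replicate number of the labels, with 1 line per group (solid for 3.5 h, dashed for 16 h). Right, ratio of Mmp14 to Timp2 in TPM (log axis) in each culture by group, with bars at the means and a dashed line at 1. Timp1 and the stromal sum are both high in replicate 1 and low in replicate 3 of most groups, and the ratio of Mmp14 to Timp2 is highest with LPS at 16 h (3.76 to 8.49).

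Per unit of exon length, in TPM, the makeup of the protease transcripts differed between groups. In control cultures Mmp12 made up 64.0% ± 4.1 of the summed TPM of the 6 proteases at 3.5 h and 82.2% ± 4.7 at 16 h (SD, n = 5). Mmp13 held most of the sum with LPS at 3.5 h, 80.01% ± 0.9 (n = 4), and was also the largest share with VWF at that time, 45.6% ± 1.9 (n = 5). At 16 h, VWF cultures were led by Mmp14 (42.4% ± 8.9) and Mmp12 (40.4% ± 8.7), and Mmp9 reached 7.63% ± 2.65, against 0.49% ± 0.19 in control. LPS cultures at 16 h held 46.8% ± 3.5 Mmp13 and 33.6% ± 5.1 Mmp14. With the length of the longest transcript in place of all exons, Mmp14 came first in LPS cultures (44.5% against 33.9% for Mmp13), and Mmp12 came first with VWF at 3.5 h (42.4% against 33.6%). These shares are taken within a culture, so TMM factors would not change them.

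The summed TPM of the proteases was 767 ± 90 in control, 1336 ± 141 with VWF and 3156 ± 299 with LPS at 3.5 h. By 16 h it was 599 ± 111, 509 ± 96 and 1197 ± 103. The ranges of the 3 groups did not overlap at 3.5 h, and at 16 h only LPS was apart. These sums do not use TMM factors, which can change how groups compare. Mean Mmp12 at 3.5 h, for example, was 490.5 TPM in control and 465.8 TPM with LPS, but 1076 and 1689 CPM with TMM factors. The ratio of Mmp14 to Timp2, in TPM, was 0.0653 ± 0.0312 in control, 0.876 ± 0.165 with VWF and 0.885 ± 0.122 with LPS at 3.5 h. It was 0.0517 ± 0.0175, 1.28 ± 0.20 and 5.25 ± 2.21 at 16 h. With the length of the longest transcript the ratio was higher throughout, at 0.114, 1.53 and 1.55 at 3.5 h and 0.0905, 2.25 and 9.19 at 16 h, so that whether it lies above or below 1 at 3.5 h depends on the length used. Treated and control cultures did not overlap in this ratio at either time, with either length.

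**Figure D4:**
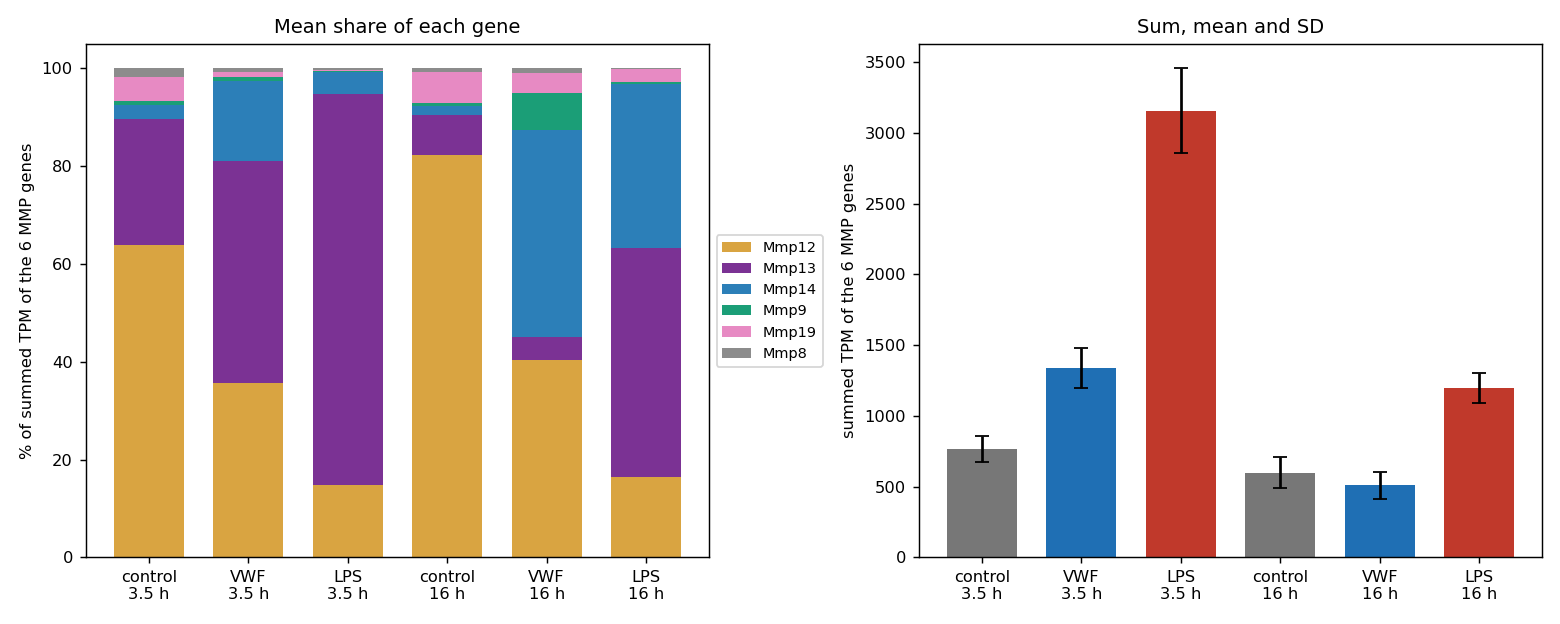
Left, mean share (percent) of each gene in the summed TPM of the 6 MMP genes, by group. Right, that sum in TPM as mean and SD (n = 5 for control and VWF, n = 4 for LPS). Mmp12 fills 64.0% and 82.2% of the control bars, Mmp13 fills 80.01% with LPS at 3.5 h, and Mmp14 is wide with both agonists at 16 h.

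Time in culture was compared within each treatment, at 16 h against 3.5 h. In control cultures 2 of 7 members tested were called, Mmp8 and Mmp13, both lower, where 9.08% of genes were called (4% higher and 5.09% lower). By adjusted p alone 4 of 7 passed, against 41.1% of genes. Mmp8 fell by 1.62 ± 0.28 (log2, edgeR adjusted p = 0.00123) and Mmp13 by 1.85 ± 0.12 (edgeR adjusted p = 2.84e-06). Mmp8 passed the filter only through control cultures of 3.5 h, as those of 16 h reached at most 5.59 TPM. Mmp14 differed by -0.92 ± 0.32 (edgeR adjusted p = 0.0392), and was called without control replicate 3 (-1.05) or 5 (-1.10) of 3.5 h or replicate 1 (-1.08) of 16 h. With VWF, 3 of 8 were called, Mmp9 higher and Mmp12 and Mmp13 lower, where 21.4% were called (9.15% higher and 12.2% lower). By adjusted p alone 6 of 8 passed, against 67.9% of genes. Mmp9 rose by 1.86 ± 0.25 (edgeR adjusted p = 4.65e-05), Mmp12 changed by -1.17 ± 0.21 (edgeR adjusted p = 0.000422) and Mmp13 by -4.67 ± 0.15, a 25.4-fold fall (edgeR adjusted p = 1.25e-09). Mmp14 did not pass, at -0.03 (95% interval -0.36 to 0.30).

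With LPS, 6 of 8 members were called between the times, where 28.1% of genes were called (14.6% higher and 13.5% lower), and the same number passed by adjusted p alone, against 60.9% of genes. Mmp14 (1.53 ± 0.25, edgeR adjusted p = 0.000629) and Mmp19 (1.64 ± 0.39, edgeR adjusted p = 0.00584) rose. Mmp8 (-2.18 ± 0.31), Mmp12 (-1.24 ± 0.15), Mmp13 (-2.16 ± 0.14) and Timp2 (-1.01 ± 0.09) fell, with edgeR adjusted p between 2.82e-06 and 0.000294. Mmp8 passed the filter here only through LPS replicate 2 of 3.5 h (10.7 TPM) and was not tested without it. Timp2 was just past the fold threshold and dropped below it without LPS replicate 4 of 3.5 h (-0.99) or replicate 3 (-0.96) or 4 (-0.98) of 16 h.

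The effect of each agonist against control was then compared between the times, as an interaction. For VWF, 3 of 8 members were called, where 13.5% of genes were called (5.69% higher and 7.77% lower), and 3 passed by adjusted p alone, against 32.6%. The VWF effect was larger at 16 h for Mmp9 (2.63 ± 0.38, edgeR adjusted p = 1.81e-05) and lower for Mmp12 (-1.33 ± 0.26, edgeR adjusted p = 0.000431) and Mmp13 (-2.82 ± 0.17, edgeR adjusted p = 2.77e-10). Mmp9 passed the filter here only through VWF cultures, as controls reached at most 7.47 TPM at 3.5 h and 4.42 TPM at 16 h. For LPS, 3 of 8 were called, where 26.3% were called (13.5% higher and 12.8% lower), and 4 passed by adjusted p alone, against 48.8%. These were Mmp14 (2.46 ± 0.44, edgeR adjusted p = 0.000201) and Mmp19 (1.52 ± 0.50, edgeR adjusted p = 0.0186), with a higher effect at 16 h, and Mmp12 (-1.39 ± 0.21, edgeR adjusted p = 3.39e-05). For Mmp13 the LPS interaction was -0.30 (95% interval -0.68 to 0.08) and not called. Mmp19 was not called with no filter (1.48, edgeR adjusted p = 0.0639). For Mmp14 the VWF interaction was 0.90 ± 0.36 (edgeR adjusted p = 0.0662), and it was called by library size alone (1.03) or without control replicate 3 (1.03) or 5 (1.07) or VWF replicate 4 (1.01) of 3.5 h, or control replicate 1 of 16 h (1.06).

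Of 17 other Mmp genes, at most 2 passed the filter in a comparison with control. Mmp25, a membrane-anchored protease of leukocytes, was called higher with LPS at 16 h (7.07 ± 0.46, edgeR adjusted p = 1.31e-06). It passed the filter there only through LPS cultures (5.66 to 11.4 TPM) and was not tested in the other comparisons with control, where no culture reached 10 TPM. Its mean level was 0.17 CPM in control at both times, 6.69 and 1.30 CPM with VWF and 14.4 and 23.9 CPM with LPS at 3.5 and 16 h. Mmp27, which starts 3' of Mmp8 in the chromosome 9 row on the same strand (chr9:7571396-7581885), stood beside Mmp8 in its time course. It was 16.6 CPM in control at 3.5 h and 2.90 at 16 h, and it fell with time in control (-2.47 ± 0.27), VWF (-2.04 ± 0.15) and LPS cultures (-2.81 ± 0.20), with edgeR adjusted p between 3.53e-07 and 7.93e-05. Of 3 other inhibitors, Timp3, Timp4 and Reck, only Timp3 passed the filter against control, at 3.5 h, with a change of 0.81 ± 0.58 with VWF and 0.05 ± 0.49 with LPS.

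Genes that bind or activate MMPs formed a list of 11, of which 9 were tested in each comparison with control. Over all genes tested, 14.7% were called with VWF and 24.5% with LPS at 3.5 h, and 8.71% and 27.6% at 16 h. VWF at 3.5 h called 1 higher and 1 lower. Lcn2 (lipocalin-2, a binding partner of MMP-9) rose by 5.86 ± 0.45 (edgeR adjusted p = 8.09e-07), and Plau (urokinase, which generates plasmin) fell by 2.40 ± 0.16 on the log2 scale (edgeR adjusted p = 2.77e-07). LPS at 3.5 h called 4 higher, Lcn2 (5.44), Serpinb2 (1.92), Plaur (1.28) and Cd44 (1.18), and 2 lower, Plau (-3.14) and Lrp1 (-1.14). At 16 h, VWF called Lcn2 higher (6.58) and Plau (-2.37), Serpinb2 (-1.51) and Cd44 (-1.36) lower. LPS at that time called Lcn2 (9.33) and Serpinb2 (1.79) higher and Plau (-1.85) and Cd44 (-1.02) lower. Lcn2 rose and Plau fell in all 4 comparisons. No control culture reached 10 TPM of Lcn2, so it passed the filter only through treated cultures, and its changes start from a low control level. The median of the 9 was 0.53 and 0.81 at 3.5 h, and -0.40 and 0.22 at 16 h, for VWF and LPS.

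Among 15 ADAM and ADAMTS proteases, 6 or 7 were tested against control. For these and for the matrix genes below, the shares of all genes called are those given for the list before. VWF called Adam17, the sheddase of TNF, higher at 3.5 h (1.10 ± 0.11), and its change at 16 h was 0.57 ± 0.08. LPS called Adamts4, an aggrecanase, higher (5.99 ± 0.27) and Adamts10 (-1.63) and Adam8 (-1.11) lower at 3.5 h, and Adamts10 lower at 16 h (-2.03). Adamts4 passed the filter at 3.5 h only through LPS cultures and was not tested for VWF against control. Its difference between VWF and LPS at that time was -1.89 ± 0.18. Among 18 matrix genes, of which 11 to 13 were tested, VWF called Col18a1 higher at 3.5 h (1.10) and 16 h (1.05) and Spp1 (osteopontin, an MMP substrate) lower at 16 h (-4.68 ± 0.18). LPS called Thbs1 (thrombospondin-1) higher at 16 h (2.29).

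Genes whose log2 CPM followed each member most closely over the 28 cultures were found among 8867 genes. The cultures fall into 6 groups and share their scaling, so the correlations (Pearson's r) are a description. Mmp14 was closest to Sod2 (r = 0.98), Ccl5 (0.97) and Ptges (0.97), and Mmp13 to Csrnp1 (0.99), Zfp800 (0.98) and Rbms1 (0.98). Mmp9 was closest to Slc13a3 (0.91), Itgam (0.89) and Adgre1 (0.88). By rank correlation (Spearman) the closest to Mmp9 were Slc13a3, Camp and Gm14326, and over the group means Itgam, Maged2 and Gstm2. For Mmp8 these genes were Susd1 (0.96), Ddx21 (0.94) and Cul5 (0.94), for Mmp12 Mamld1 (0.92), Cdkn1c (0.91) and Gprc5c (0.90), and for Mmp19 Cyth4 (0.90), Evl (0.90) and Plin3 (0.89). Timp1 was closest to Plac8 (0.89), Ccl8 (0.88) and Serping1 (0.86), and Timp2 to Gas6 (0.96), Taf1d (0.96) and Padi2 (0.95). These names depended on the measure. By Spearman none of the genes named for Mmp19 stayed among its closest 3, while Timp1 kept all of its own. Over the group means none of those named for Mmp13 or Timp2 stayed. Between members, r ranged from -0.49 (Mmp9 and Mmp12) to 0.85 (Mmp8 and Timp2).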

How the data were processed

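Bulk RNA-seq of 28 BMDM cultures was used, grouped by treatment and time as the sample titles state. Paired-end reads were mapped by the authors to GRCm38 (mm10) with STAR, and the authors deposited raw counts per Ensembl gene. How strand, annotation and multi-mapping reads were handled is not given in the sources used. Of 54532 genes, 30159 had a count and 30143 of these an exon length in GENCODE M21, from which TPM was computed.

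A gene was tested when at least 1 culture of a comparison reached 10 TPM. The main test was edgeR 4.0.16 (R 4.3.3; quasi-likelihood, robust, TMM), fitted on the groups compared only, with Benjamini-Hochberg adjustment over all genes tested. Each agonist was compared with control and with the other agonist at both times, the times were compared within each treatment, and the effect of each agonist was compared between times (an interaction). CPM used TMM factors over all cultures, and correlations used log2 CPM with a prior count of 2. Alternatives were DESeq2 1.42.0, median-of-ratios factors, library size alone, filterByExpr, no filter, all 6 groups in one fit, a replicate block, dropping the fold threshold, and omitting 1 culture at a time. Tested on simulated counts with 200 changed genes, the main test recovered between 91% and 99.5% of them per comparison. The planted log2 changes were at least 2 in size, in genes with a mean count over 200, with no replicate effect. That rate therefore does not cover changes near the fold threshold or genes of low count.

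Named genes were the 8 members, called genes of fixed lists (at most 3 per list and comparison with control, and every called gene that binds or activates MMPs) and the 3 genes closest to each member in pattern. Mmp27, the uncalled values of Timp3 and Adam17, and the single marker genes were named after their values were seen. The members, lists and tests were chosen with earlier results of these data known. No 2 cultures of a group were duplicates (chi-square per degree of freedom at least 17.1 over 52 pairs). Total counts per culture were 41131209 to 77699206. The labels call the cultures of a group biological replicates and do not say whether they came from separate mice, so p-values measure the spread between these cultures. Over all genes that passed the filter, the deviations of same-numbered cultures from their group means were correlated. Only between VWF and LPS at 16 h was every pair positive, at 0.20 to 0.81 over 4 pairs. Single genes or lists could still follow the replicate number elsewhere. The summed stromal markers were highest in replicate 1 and the summed neutrophil markers in replicate 4 of every group. The pairing comes from these values and not from the labels. No amino acid sequences were used here.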

Additional observations from a re-analysis of the deposited data

Results flagged for a closer look

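In 48 groups of cultures (8 genes in 6 groups), 2 held a culture far from the others by Dixon's criterion, and chance gives about 1 in 20. Mmp9 with LPS at 16 h was highest in replicate 1, at 16.8 CPM (gap of 0.91 of the range). Timp2 in control cultures at 16 h was lowest in replicate 1, at 243 CPM (gap of 0.75 of the range).

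The effect of VWF against control differed between 3.5 h and 16 h, tested as an interaction, for Mmp9 (2.63), Mmp12 (-1.33) and Mmp13 (-2.82) on the log2 scale. Mmp9 passed the filter in that comparison only through VWF cultures. The effect of LPS differed between the times for Mmp12 (-1.39), Mmp14 (2.46) and Mmp19 (1.52).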

How the results depend on the processing

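The number of members called by VWF against LPS at 3.5 h was 2, and 4 with no fold threshold. It was 1 by library size alone, with no filter, with all 6 groups in one fit and with a replicate block, in each case through Timp1. With no fold threshold the count went from 3 to 5 for VWF against control at 16 h, from 3 to 6 for VWF at 16 h against 3.5 h and from 2 to 4 for control at 16 h against 3.5 h. Leaving out each culture in turn gave 1 to 2 calls for VWF against LPS at 3.5 h and 3 to 4 for LPS against control at 16 h. Changes turned sign by library size alone for Mmp12 with VWF at 3.5 h (-0.041), Mmp8 between VWF and LPS at 3.5 h (0.22), Mmp19 with LPS at 16 h (-0.42), Mmp12 between VWF and LPS at 16 h (0.13) and Mmp14 with VWF between the times (0.065). DESeq2 and median-of-ratios factors turned the VWF interaction of Timp2 (-0.017 each). None of these was called, and the cause was not tested. Of 83 changes tested, the sign and the call (called or not called) were both as in the main test for 82 with DESeq2, 83 with filterByExpr, 81 with no filter and 68 by library size alone, whatever the size of the shift.

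Leaving out 1 culture turned uncalled changes in 21 fits. The ranges were -0.41 to 0.015 for Mmp8 with LPS and -0.23 to 0.14 for Mmp8 between VWF and LPS at 3.5 h, -0.084 to 0.32 for Mmp19 between VWF and LPS at 3.5 h, and -0.050 to 0.40 for Mmp19 with LPS at 16 h. Between the times they were -0.11 to 0.080 for Mmp14 and -0.48 to 0.0063 for Timp1 with VWF, -0.12 to 0.65 for Timp1 in control and -0.024 to 0.23 for Mmp9 with LPS. For interactions they were -0.040 to 0.063 for Timp2 with VWF and -0.25 to 0.56 for Timp1 with LPS. Mmp8 with VWF between the times was called without VWF replicate 3 of 16 h (-1.06).

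Apart from VWF against LPS at 16 h, correlations of same-numbered cultures ran from -0.69 to 0.73, and whether a replicate block applies there is not known. The block turned Mmp19 with LPS at 16 h (-0.14) and Mmp9 with LPS between the times (-0.058). Timp1 with VWF at 3.5 h was 0.91 ± 0.19 under it (edgeR adjusted p = 0.00728), short of the fold threshold. The block changed no call in the paired comparison of VWF with LPS at 16 h.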
